A study of Mus musculus with 8 samples.

Results

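The 10 genes described here encode receptors, bridging molecules and engulfment proteins of efferocytosis, the uptake of dying cells by phagocytes: Mertk, Axl, Gas6, Pros1, Mfge8, Lrp1, Cd36, Elmo1, Dock1 and Tgm2. They were chosen by name and not by a measured value, though with earlier results of these data known. All 10 were matched by symbol among the 55414 genes of the deposited table. All 10 also passed the filter on low counts, which kept 15371 genes. The study sequenced RNA of macrophages from skin wounds of mice. The deposited counts hold 3 libraries (a to c) from day 1 and 5 libraries (a to e) from day 3 after injury, where the protocol states 6 samples per time point. Each library was made from cells held by magnetic beads against F4/80, a macrophage surface protein, and each pooled 6 wounds of 3 mice. Injury and bead selection were common to both groups, and strain, genotype, age and sex are not given in the labels used here. Unwounded skin was not analysed here.

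Dying cells expose phosphatidylserine on their surface, and phagocytes bind it either directly or through soluble bridging proteins. MERTK, AXL and TYRO3, the TAM receptors, are receptor tyrosine kinases that bind phosphatidylserine through the vitamin K-dependent proteins GAS6 and protein S, the product of Pros1. MFG-E8 bridges phosphatidylserine to integrins, CD36 and LRP1 are scavenger-type uptake receptors, TGM2 is a transglutaminase that acts as a partner of integrins in uptake, and ELMO1 with DOCK1 activates the GTPase RAC1, which drives the actin cup. In skin wounds, macrophages clear spent neutrophils by this route.

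Library totals ran from 41566151 to 60289310 counts, and a count of 3, used as the floor of detection, stood for between 0.0501 and 0.0755 CPM (counts brought to a common library total, with TMM scaling factors). Macrophage markers were present in every library: their sum over 8 of 8 genes was between 15146 and 17401 CPM at day 1 and between 23921 and 30488 CPM at day 3, and most of that difference lay in Lyz2 (6717 to 9897 CPM, then 15661 to 23432 CPM). Adgre1, which encodes F4/80, was also higher at day 3 (689 to 940 CPM, then 994 to 1181 CPM). Fcgr1 (717 to 979 CPM, then 344 to 488 CPM) and C5ar1 (1031 to 1457 CPM, then 688 to 893 CPM) were lower without overlap, and Csf1r, Cd68, Itgam and Mrc1 overlapped between the days. Neutrophil markers, detected for 10 of 10 genes, had summed levels of 843, 2237 and 3887 CPM in the day 1 libraries. Day 3 b held 3681 CPM of them, far above the remaining day 3 libraries, which ranged from 448 to 668 CPM. Ly6g, Camp and Ltf were at 0 in at least 1 library, and no neutrophil marker was at 0 in day 1 b, day 1 c or day 3 b. Fibroblast markers, detected for 8 of 8 genes, were low and did not overlap between the days, with 9.84 to 39.6 CPM at day 1 and 63.0 to 136 CPM at day 3, and Pdgfra and Dpt were at 0 in at least 1 library. Endothelial markers, detected for 8 of 8 genes, ran from 31.4 to 78.0 CPM at day 1 and from 17.32 to 30.04 CPM at day 3. Inflammatory monocyte markers (6 of 6 genes, 2186 to 3027 CPM, then 1454 to 2095 CPM) and platelet markers (5 of 6 genes, 3822 to 7132 CPM, then 2479 to 3771 CPM) were also lower at day 3 without overlap. Itga2b, Gp1ba, Gp9 and Gp6 among the platelet genes were at 0 in at least 1 library, as were Tek, Emcn, Cldn5 and Tie1 among the endothelial genes. In day 1 b and day 3 d these 4 platelet genes were all at 0, so the platelet sum there (3822 and 2479 CPM) came from Pf4 and Ppbp alone. Which cells that RNA came from was not tested. B and plasma cell markers (5 of 6 genes, 0.252 to 13.4 CPM, then 17.6 to 36.1 CPM) were higher at day 3 without overlap. Mast cell and basophil markers (4 of 6 genes, 4.02 to 11.3 CPM, then 0.114 to 3.96 CPM) were lower without overlap. Most genes of these 2 lists were at 0 in at least 1 library. Between 23928 and 27315 genes were detected in the day 1 libraries, 20557 in day 3 a, and between 14952 and 15359 in the other day 3 libraries. The part of these differences in the results was not tested. In bulk libraries, fewer cells of a type and less RNA per cell cannot be told apart.

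The comparison the labels define is that of day 3 with day 1. The 10 genes did not shift together. Tgm2 was lower at day 3 in all 5 libraries, at 56.3 ± 14.1 CPM against 151 ± 97.1 CPM at day 1 (SD, n = 5 and 3), and Pros1 was on average higher, at 142 ± 49.3 CPM against 73.4 ± 29.6 CPM. For the other 8 genes the interval of the fold change held 0 and the values of the days overlapped.

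By the edgeR quasi-likelihood test with Benjamini-Hochberg adjustment over all genes, 0 of the 10 were called at an adjusted p under 0.05, where 0.013% of all tested genes were called. At an unadjusted p under 0.05 there were 2 (Tgm2 and Pros1), against 15.7% of all genes. DESeq2 called 1 of the 10 (Tgm2), where it called 6.77% of all genes, and limma voom called 0, where it called 5.37%. With a stricter filter on low counts (all libraries of 1 day at 1 CPM or more, and an average of 5 CPM or more), which 9 of the 10 passed, edgeR called 0 of the 9 and 1.79% of all genes. Day 1 and day 3 values were fully apart for 1 of the 10 (Tgm2), against 14.1% of all genes. The median log2 fold change, day 3 minus day 1, was -0.073 over the 10 and -0.167 over all genes tested. None of these counts differed by as much as 1 gene from what the share among all genes gives for a set of this size.

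**Figure D1:**
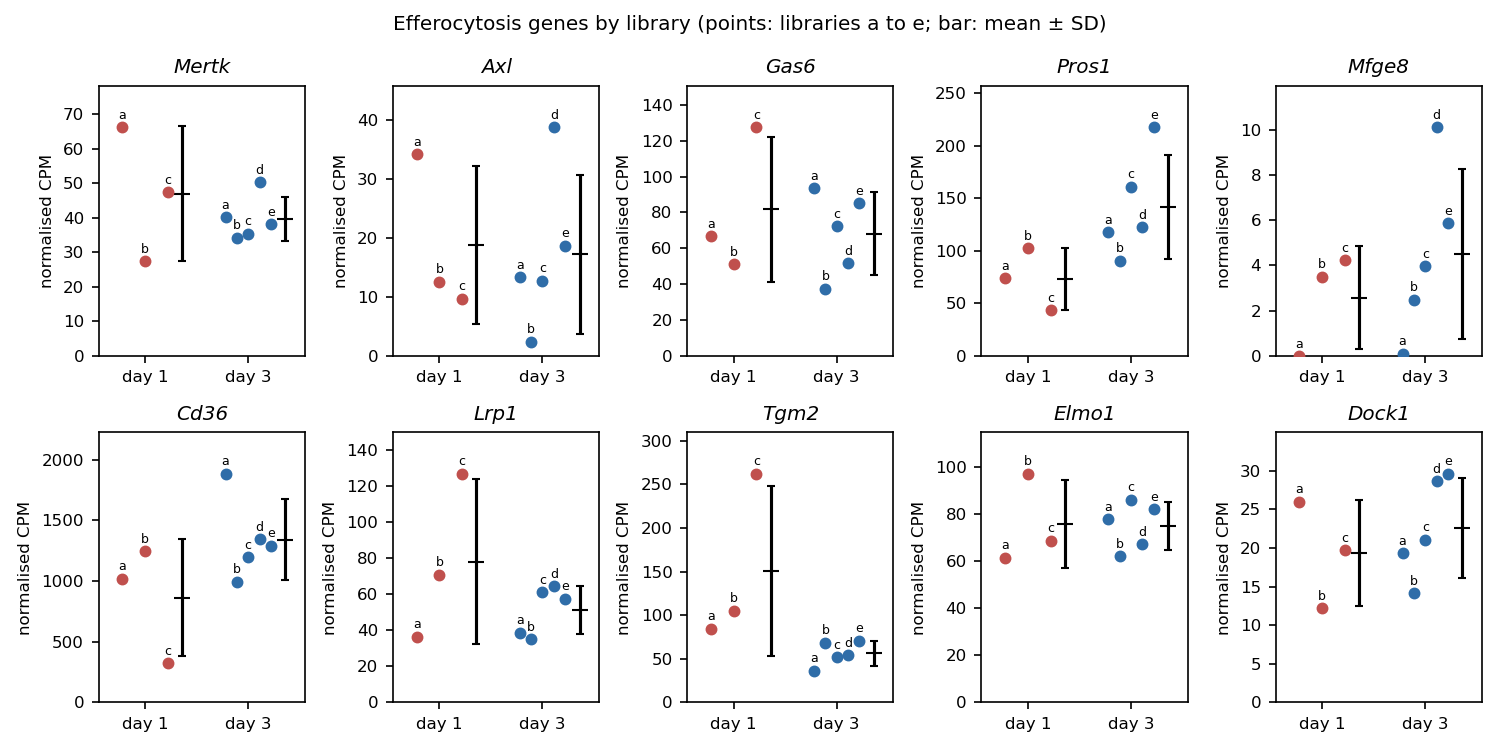
Normalised CPM (vertical axis, linear, from 0) of each of the 10 genes in the 3 day 1 libraries (red) and 5 day 3 libraries (blue), lettered by library, with the mean and SD of each day in black. Tgm2 is the gene whose days do not overlap, and Axl at day 3 runs from 2.40 CPM in library b to 38.8 CPM in library d.

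**Figure D2:**
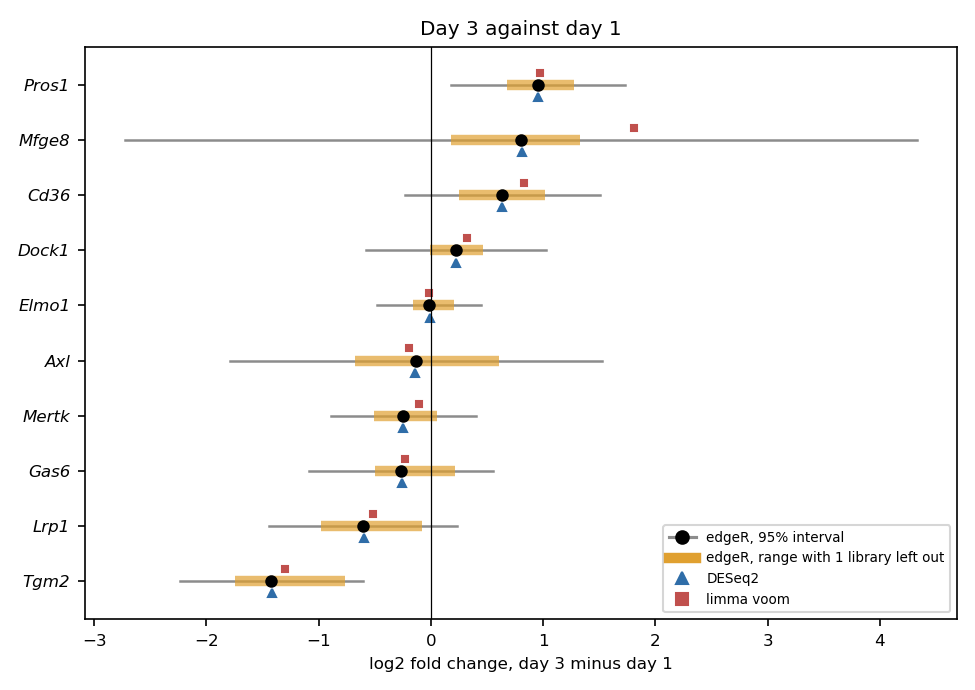
Log2 fold change, day 3 minus day 1 (horizontal axis), for each gene, with the edgeR value and its 95% interval, the range of edgeR values with each library left out in turn, and the DESeq2 and limma voom values. The intervals of Tgm2 and Pros1 exclude 0 before adjustment, and that of Mfge8 spans -2.73 to 4.34.

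Levels of different genes were compared per transcript length, as TPM (counts divided by the exon length given in the table, then scaled to the same total in each library). Cd36 was the highest of the 10 in every library, at 589 TPM on average at day 1 and 907 TPM at day 3. It held 38.3% of the summed TPM of the 10 genes in day 1 c and between 73.7% and 84.6% in the other libraries. At day 3 the order below Cd36 was Pros1 (84.8 TPM), Gas6 (64.9 TPM), Tgm2 (29.6 TPM), Mertk (22.2 TPM), Elmo1 (14.5 TPM), Axl (8.47 TPM), Lrp1 (7.07 TPM), Dock1 (5.92 TPM) and Mfge8 (2.37 TPM). At day 1 Tgm2 (83.6 TPM) and Gas6 (81.4 TPM) came next after Cd36, followed by Pros1 (44.3 TPM), Mertk (26.9 TPM), Elmo1 (15.0 TPM), Lrp1 (11.2 TPM), Axl (9.12 TPM), Dock1 (5.14 TPM) and Mfge8 (1.41 TPM). Most neighbours in these orders overlapped in their ranges. The exceptions were Cd36 and the next gene on both days, Dock1 and Mfge8 at day 1, and Mertk and Elmo1 at day 3, where Mertk was the higher in 5 of 5 libraries.

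**Figure D3:**
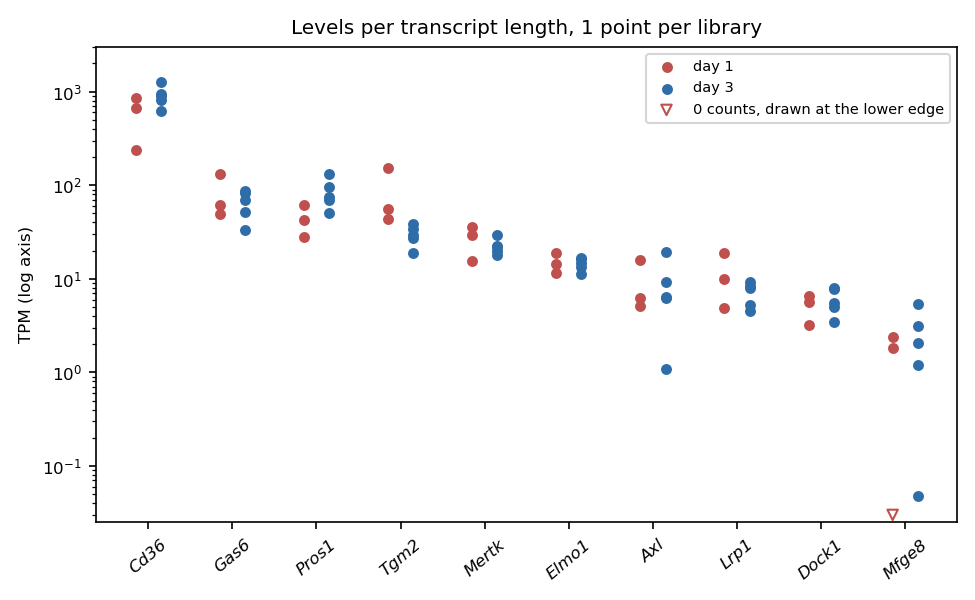
TPM of the 10 genes on a log axis, 1 point per library, day 1 in red and day 3 in blue, in order of the mean over all 8 libraries. Cd36 lies between 241 and 1254 TPM, and the open triangle marks Mfge8 in day 1 a, which had 0 counts.

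Among the TAM receptors, Mertk was the most abundant and the steadier. Mertk (ENSMUSG00000014361, GRCm39 chromosome 2, 128540876 to 128644814), which in macrophages takes up apoptotic cells with GAS6 or protein S as the bridge, was at 66.2, 27.3 and 47.4 CPM in libraries a, b and c of day 1. At day 3 it was at 40.3, 34.3, 35.4, 50.2 and 38.1 CPM in a to e. All 5 day 3 values lay inside the range of day 1, whose highest and lowest libraries were the extremes of all 8. The log2 fold change was -0.25 ± 0.29 (SE, 95% interval -0.89 to 0.40, edgeR adjusted p = 0.755). Leaving out day 1 a, the highest library, gave 0.053, and leaving out day 1 b, the lowest, gave -0.51.

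Axl differed more between libraries than any other gene of the set with counts in every library. Axl (ENSMUSG00000002602, chromosome 7, 25456698 to 25488130), the TAM receptor that is induced by inflammatory signals and prefers GAS6, was at 34.3, 12.6 and 9.70 CPM in libraries a, b and c of day 1, and at 13.4, 2.40, 12.7, 38.8 and 18.7 CPM in day 3 a to e. The highest value was 16.2 times the lowest, and both came from day 3 (d and b), so the day 1 libraries lay within the range of day 3. Mean levels were 18.9 ± 13.4 and 17.2 ± 13.4 CPM (SD, n = 3 and 5), and the log2 fold change was -0.13 ± 0.74 (95% interval -1.79 to 1.53, edgeR adjusted p = 0.958). It was -0.67 without day 3 d and 0.61 without day 1 a. Per length, the ratio of Axl to Mertk was 0.446, 0.396 and 0.176 in the day 1 libraries and 0.286, 0.0603, 0.310, 0.666 and 0.424 in those of day 3, so Mertk exceeded Axl in all 8 libraries.

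Tyro3, the remaining TAM receptor, was close to or at the floor. It had 4, 2 and 2 counts in the day 1 libraries and 0 in all 5 day 3 libraries, and it was not tested. At day 3 a count of 0 allows up to 0.0610 CPM (in day 3 b, whose scaled total was the smallest of day 3). That limit takes counts as independent, and it would be higher where counts hold both reads of a pair.

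GAS6 and protein S are the ligands of these receptors. Gas6 (ENSMUSG00000031451, chromosome 8, 13515374 to 13544490) was at 66.6, 51.3 and 127 CPM in libraries a, b and c of day 1 and at 93.5, 37.5, 72.2, 51.8 and 85.0 CPM in day 3 a to e. The days overlapped, day 1 c was the highest and day 3 b the lowest, and the log2 fold change was -0.27 ± 0.36 (95% interval -1.08 to 0.55, edgeR adjusted p = 0.799). Without day 1 c it was 0.22.

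Pros1 (ENSMUSG00000022912, chromosome 16, 62674670 to 62749709), which encodes the anticoagulant and TAM ligand protein S, was at 74.4, 103 and 43.3 CPM in libraries a, b and c of day 1. In day 3 a to e it was at 118, 90.6, 161, 122 and 218 CPM. Of the 5 day 3 libraries, 4 were above every day 1 library, and day 3 b lay below day 1 b. The log2 fold change was 0.95 ± 0.35 (95% interval 0.18 to 1.73), which did not pass after adjustment (edgeR adjusted p = 0.209, DESeq2 0.0814, limma voom 0.143). With 1 library left out it ran from 0.68 (without day 1 c) to 1.28 (without day 1 b), and without day 1 b or without day 3 b the days no longer overlapped, as for 23.1% and 18.4% of all genes in those fits. A fit with no filter on low counts called it (edgeR adjusted p = 0.0282), as it did 1347 of 38518 genes tested. In that fit the median log2 fold change over all genes was -1.40, against -0.167 with the filter.

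The ratio of Pros1 to Gas6, per length, was 0.696, 1.25 and 0.212 in day 1 a, b and c and 0.786, 1.51, 1.39, 1.47 and 1.598 in day 3 a to e. In 4 of 5 day 3 libraries (b to e) Pros1 exceeded Gas6 and the ratio was above that of every day 1 library, whereas day 3 a lay within the day 1 range. No test was made of this ratio.

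The promoters of these 2 ligand genes are shown because their proteins bind the same receptors. Each runs from 250 bases before to 50 bases after the start site (RefSeq, GRCm38.p6, strand of the gene), Gas6 at chr8:13494486-13494785 on the minus strand and Pros1 at chr16:62854057-62854356 on the plus strand. Capitals mark the GC box GGGCGG on either strand, which Sp-family factors can bind, with overlapping matches counted separately.
Gas6: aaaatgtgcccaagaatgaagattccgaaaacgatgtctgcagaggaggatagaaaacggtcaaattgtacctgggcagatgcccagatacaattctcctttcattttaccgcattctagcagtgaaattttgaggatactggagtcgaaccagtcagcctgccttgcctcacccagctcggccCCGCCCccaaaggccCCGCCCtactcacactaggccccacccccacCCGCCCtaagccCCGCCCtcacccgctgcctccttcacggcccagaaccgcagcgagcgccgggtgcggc
Pros1: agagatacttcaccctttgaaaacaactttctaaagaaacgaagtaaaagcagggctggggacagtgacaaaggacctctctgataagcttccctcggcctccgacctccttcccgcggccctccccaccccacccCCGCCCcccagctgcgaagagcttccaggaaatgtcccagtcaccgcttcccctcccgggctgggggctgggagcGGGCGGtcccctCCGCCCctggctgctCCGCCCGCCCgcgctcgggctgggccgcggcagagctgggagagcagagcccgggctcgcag
Gas6 held 4 GC boxes and Pros1 held 5. A promoter was found for 9 of the 10 genes (Tgm2 was the gene without an entry), and Elmo1 had 2 promoters, giving 10. A GC box was in 9 of these 10 promoters (in all but the second of Elmo1), and in 35.7% of 32851 RefSeq promoters of the same length. In these 10 promoters between 43.0% (Cd36) and 70.7% (Dock1) of bases were G or C. The share over all promoters was not matched for this, so the 2 shares cannot be read as a trait of these genes. The E-box CACGTG, found in 7.15% of promoters, and the AP-1 site TGACTCA, in 5.20%, were in 0 of the 10. The TATA box TATAAA (13.6% of promoters) was in 1, at Elmo1, and the nuclear receptor motif AGGTCA (16.3%) in 1, at Cd36. A match in letters is no evidence of binding.

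Mfge8 was the least abundant gene of the set, and 2 libraries almost lacked it. Mfge8 (ENSMUSG00000030605, chromosome 7, 78783516 to 78798808), which encodes the bridge from phosphatidylserine to alpha v integrins, was at 0, 3.50 and 4.24 CPM in libraries a, b and c of day 1 and at 0.0949, 2.48, 3.97, 10.1 and 5.87 CPM in day 3 a to e. Behind these values lay 0, 210 and 233 counts in the day 1 libraries and 5, 122, 202, 588 and 308 counts in those of day 3. Day 1 a and day 3 a were at or near the floor, and the 6 others lay between 2.48 and 10.1 CPM. Day 1 a also had 3 or fewer counts for 599 of the 9557 genes with a median of at least 2 CPM in the other libraries, against between 24 and 205 genes in each of the 7 others (144 in day 3 a). The log2 fold change of 0.80 ± 1.58 (95% interval -2.73 to 4.34, edgeR adjusted p = 0.873) rests in part on the library at 0, and was 0.18 without day 1 a.

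Cd36, the most abundant gene, was higher on average at day 3 without passing the test. Cd36 (ENSMUSG00000002944, chromosome 5, 17986688 to 18093799), a scavenger receptor for oxidised lipids, thrombospondin and apoptotic cells, was at 1021, 1245 and 325 CPM in libraries a, b and c of day 1. In day 3 a to e it was at 1885, 994, 1195, 1343 and 1291 CPM. Day 1 c was far below the 7 others, and without it the days still overlapped. The log2 fold change was 0.64 ± 0.39 (95% interval -0.23 to 1.50, edgeR adjusted p = 0.493), 0.25 without day 1 c and 1.01 without day 1 b. With no filter on low counts the adjusted p was 0.0159 in edgeR, with an SE of 0.18, where 1347 of 38518 genes were called.

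Lrp1 (ENSMUSG00000040249, chromosome 10, 127374030 to 127457017), the large endocytic receptor that takes up cells marked by calreticulin, was at 36.4, 70.9 and 127 CPM in libraries a, b and c of day 1. At day 3 it was at 38.6, 34.9, 61.0, 64.3 and 57.5 CPM. The spread of day 1 covered all but day 3 b. The log2 fold change was -0.61 ± 0.37 (95% interval -1.44 to 0.23, edgeR adjusted p = 0.498), and it came largely from day 1 c, without which it was -0.075. Leaving out day 1 a gave -0.98 and separated the days, as for 22.6% of all genes in that fit, with an edgeR adjusted p of 0.148.

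Tgm2 was the gene with the clearest difference between the days. Tgm2 (ENSMUSG00000037820, chromosome 2, 157958322 to 157988356), which encodes tissue transglutaminase, a cross-linking enzyme and integrin partner in uptake, was at 84.7, 105 and 262 CPM in libraries a, b and c of day 1, and at 36.2, 68.6, 51.7, 54.1 and 70.7 CPM in day 3 a to e. Every day 3 library was below every day 1 library. The highest day 1 library was 3.10 times the lowest, and at day 3 that ratio was 1.95. The log2 fold change was -1.42 ± 0.36 (95% interval -2.24 to -0.60). Its adjusted p was 0.0857 with edgeR, 0.00850 with DESeq2, 0.0796 with limma voom and 0.0689 with the stricter filter in edgeR. With no filter on low counts edgeR called it (adjusted p = 0.000132), as it did 1347 of 38518 genes. The call thus depended on the tool and on the filter.

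In fits that each lacked 1 library, Tgm2 had a log2 fold change from -1.75 (without day 1 a) to -0.76 (without day 1 c), with adjusted p between 0.109 and 0.182 in edgeR. With the stricter filter it was called in 1 of 8 such fits, without day 1 a (edgeR adjusted p = 0.0414). Of its 4608 exon bases, 370 are shared with Rprd1b and 633 with Gm20412, both on the opposite strand. Counting used no strand option, so strand could not assign a read in the shared bases to 1 gene. Whether reads in the shared bases were counted for Tgm2 was not examined. Its TPM was divided by all 4608 exon bases, and would be too low if they were not. Rprd1b had between 380 and 1232 counts per library. Gm20412 had 0 in all 8, but all its 633 exon bases are shared with Tgm2. Its count of 0 therefore does not show that it was silent.

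The engulfment pair did not differ detectably between the days. Elmo1 (ENSMUSG00000041112, chromosome 13, 20274766 to 20792523), the adaptor of the exchange factor DOCK1, was at 61.6, 97.2 and 68.8 CPM in libraries a, b and c of day 1 and at 77.7, 62.1, 86.1, 67.3 and 82.0 CPM in day 3 a to e. These 8 values were the closest together of any gene in the set, all day 3 values lay within the day 1 range, and the log2 fold change was -0.016 ± 0.21 (95% interval -0.48 to 0.45, edgeR adjusted p = 0.985). Elmo1 shares 403 of 12580 exon bases with Gm32036 on the opposite strand, a gene with 2 to 64 counts. Dock1 (ENSMUSG00000058325, chromosome 7, 134272383 to 134775368) was at 26.0, 12.2 and 19.7 CPM in libraries a, b and c of day 1 and at 19.4, 14.2, 21.1, 28.7 and 29.6 CPM in day 3 a to e. The days overlapped and the log2 fold change was 0.23 ± 0.36 (95% interval -0.58 to 1.03, edgeR adjusted p = 0.833). Per length Elmo1 exceeded Dock1 in all libraries, with a ratio between 1.76 and 5.89 at day 1 and between 1.74 and 3.25 at day 3.

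Day 3 b, the day 3 library with the most neutrophil markers, was often at the low end of its day. It was the lowest for 8 of the 10 genes (Mertk, Axl, Gas6, Pros1, Lrp1, Cd36, Elmo1 and Dock1) and the highest for 0. How often day 3 b was the lowest over all genes was not counted, so this count cannot be read as particular to these genes. It had 3 or fewer counts for 205 of the 9522 genes with a median of at least 2 CPM in the other libraries. The other day 3 libraries had between 87 and 144 such genes. Library d was the highest for 4 of the 10 genes (Mertk, Axl, Mfge8 and Lrp1). Within day 1, where 3 libraries leave few between the ends, library c, with 3887 CPM of neutrophil markers, was the highest for Gas6, Mfge8, Lrp1 and Tgm2 and the lowest for Axl, Pros1 and Cd36. Day 1 a, with 843 CPM of them, was the highest for Mertk, Axl and Dock1 and the lowest for Mfge8, Lrp1, Elmo1 and Tgm2. The part of neutrophil RNA in these differences was not tested. Without day 1 a and day 3 b together, the days did not overlap for 4 of the 10, where 29.1% of all genes did not overlap. Axl and Pros1 were higher and Lrp1 and Tgm2 lower at day 3. Day 1 a was the highest of its day for Axl, and day 3 b the lowest of its day for Axl and Pros1. Leaving them out thus in itself favours higher day 3 values of these 2 genes. Axl was barely apart, with 12.6 CPM in day 1 b and 12.7 CPM in day 3 c by the scaling of all 8 libraries. In that fit edgeR called 0 of the 10 and 25 of 16797 genes, and the median log2 fold change of the 10 was 0.25.

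**Figure D4:**
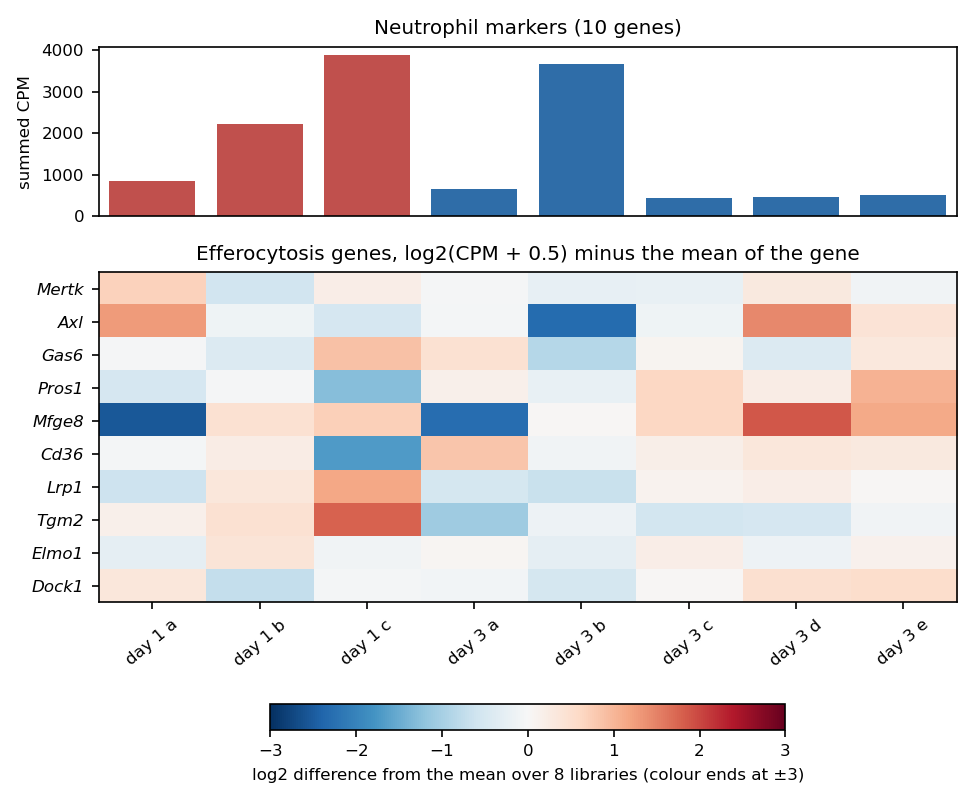
Top, summed CPM of 10 neutrophil marker genes in each library (bars from 0, day 1 red, day 3 blue); bottom, log2(CPM + 0.5) of each gene minus its mean over the 8 libraries, red above and blue below. Day 3 b has 3681 CPM of neutrophil markers and is blue for Axl and Gas6, and day 1 c is red for Tgm2 and Lrp1 and blue for Cd36 and Pros1.

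Genes with the most similar course over the 8 libraries were sought for the 3 genes that varied most (Mfge8, Axl and Tgm2), among 7906 genes with a mean of at least 5 CPM. Likeness was the root mean square difference of log2 CPM after centring each gene on its own mean, and it says nothing of shared control. For Tgm2 the nearest were Man1b1 (0.10), a mannosidase of the secretory pathway, Pdia4 (0.12), a disulphide isomerase of the endoplasmic reticulum, and Pkm (0.16), which encodes pyruvate kinase. Like Tgm2, Pdia4 was highest in day 1 c, at 496 CPM against 136 and 153 CPM in day 1 a and b, and ran from 64.9 to 129 CPM at day 3. For Axl the nearest were Senp7 (0.41), Prtn3 (0.43) and Cfap45 (0.47), and Senp7 was lowest in day 3 b (2.11 CPM) and highest in day 1 a (32.4 CPM). For Mfge8 they were Fmo5 (0.92), Rnf40 (0.95) and Enpp4 (1.04), which were likewise under 1 CPM in both day 1 a and day 3 a.

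The wider pathway was read from 8 lists with 86 genes beside the 10, of which 80 were tested. EdgeR called 0 of the 80, against 0.013% of all genes. At an unadjusted p under 0.05 there were 23 (9 higher and 14 lower at day 3), where 15.7% of all genes were. DESeq2 and limma voom each called 8 (4 higher, 4 lower), against 6.77% and 5.37% of all genes. With the stricter filter edgeR called 5 of 71, against 1.79% of all genes: Trem2 and Klf4 higher, and Calr, Thbs1 and Rab5c lower. That count was 0 without day 3 a, c, d or e, and between 3 and 8 without another library. Day 1 and day 3 values were fully apart for 9 genes that were higher at day 3 and 10 that were lower, against 14.1% of all genes, and the median log2 fold change over the 80 was -0.19, close to that of all genes.

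Among other phosphatidylserine receptors, genes differed in direction. Trem2, a lipid receptor of macrophages, was at 211 ± 36.2 CPM at day 1 and 533 ± 82.8 CPM at day 3 (log2 fold change 1.34 ± 0.19, edgeR adjusted p = 0.0579, and 0.0207 with the stricter filter). Cd300a, an inhibitory receptor for phosphatidylserine, was at 145 ± 74.1 and 309 ± 17.2 CPM (1.09 ± 0.30, edgeR adjusted p = 0.0969), whereas its relative Cd300lf was at 356 ± 109 and 193 ± 52.2 CPM (-0.88 ± 0.26, edgeR adjusted p = 0.122). Of 12 genes of that list tested, 2 were higher and 2 lower at an unadjusted p under 0.05, where 15.7% of all genes were. Havcr1, Adgrb1 and Megf10 had too few counts to test.

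Among bridging and opsonin genes, Calr, which encodes the eat-me signal calreticulin read by LRP1 and is also a chaperone of the endoplasmic reticulum, was at 734 ± 420 and 252 ± 25.4 CPM (-1.54 ± 0.29, edgeR adjusted p = 0.0741, and 0.0315 with the stricter filter). Thbs1, encoding thrombospondin, a ligand of CD36, was at 3813 ± 474 and 1742 ± 512 CPM (-1.13 ± 0.22, edgeR adjusted p = 0.0771, and 0.0355 with the stricter filter). Anxa1, encoding annexin A1, was at 1182 ± 370 and 2179 ± 141 CPM (0.88 ± 0.21, edgeR adjusted p = 0.0829), and the complement gene C1qb at 2397 ± 310 and 3258 ± 369 CPM (0.44 ± 0.16, edgeR adjusted p = 0.214). Of 9 genes tested in that list, 3 were higher and 2 lower at an unadjusted p under 0.05, where 15.7% of all genes were.

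In the engulfment list, 16 genes beside Elmo1 and Dock1 were tested. Of these, edgeR, DESeq2 and limma voom each called 0, where they called 0.013%, 6.77% and 5.37% of all genes. At an unadjusted p under 0.05 in edgeR, 1 was higher and 6 were lower, where 15.7% of all genes were under it. The list was not tested as a set. The exchange factors Vav3 (68.1 ± 12.0 and 42.3 ± 8.37 CPM) and Vav1 (141 ± 23.5 and 93.7 ± 16.6 CPM) and the actin regulator Was (58.2 ± 39.3 and 21.9 ± 9.09 CPM) had the smallest p values, with edgeR adjusted p of 0.157, 0.168 and 0.167. The most abundant, Cdc42, was at 1274 ± 131 and 1381 ± 104 CPM. The median of that list was -0.54.

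Among 17 genes of phagosome maturation and LC3-associated phagocytosis, 2 were higher and 2 lower at an unadjusted p under 0.05, where 15.7% of all genes were. Rab5c, an early endosome GTPase, was at 311 ± 145 and 129 ± 19.6 CPM (-1.27 ± 0.26, edgeR adjusted p = 0.0829, and 0.0459 with the stricter filter). Rab5a was at 117 ± 22.9 and 77.6 ± 16.1 CPM (edgeR adjusted p = 0.203), the lipid kinase gene Pik3c3 at 13.9 ± 7.73 and 30.3 ± 7.34 CPM (edgeR adjusted p = 0.241), and the lysosomal membrane gene Lamp1 at 1329 ± 82.8 and 1045 ± 159 CPM.

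Of the scavenger receptors beside Cd36 and Lrp1, edgeR called 0 of 7 tested, where it called 0.013% of all genes. Cd14, the most abundant of them, was at 9329 ± 1532 and 9853 ± 3488 CPM. Of 7 brakes on uptake, 0 had an unadjusted p under 0.05 in edgeR, against 15.7% of all genes. Limma voom called 1 lower, where it called 5.37% of all genes. This was Siglecg (named after its values were seen), at 6.19 ± 4.65 and 0.423 ± 0.869 CPM. Cd47, the don't-eat-me signal, was at 711 ± 18.4 and 799 ± 123 CPM. Of 12 regulators and sheddases, Klf4, a macrophage transcription factor, was at 304 ± 23.5 and 618 ± 93.8 CPM (1.02 ± 0.17, edgeR adjusted p = 0.0603, and 0.0263 with the stricter filter), and Nr1h2, encoding an LXR nuclear receptor, at 63.8 ± 29.6 and 36.4 ± 6.80 CPM (edgeR adjusted p = 0.208).

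**Figure D5:**
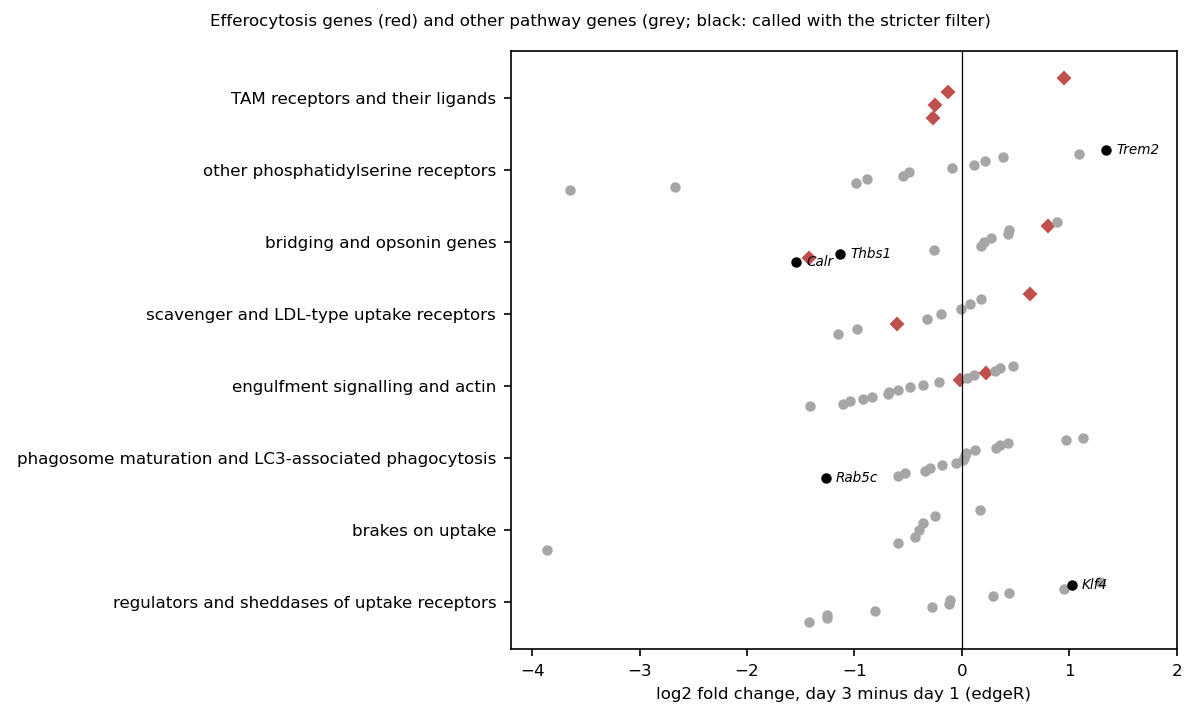
Log2 fold change, day 3 minus day 1 by edgeR (horizontal axis), of each tested gene in 8 lists of the pathway, with the 10 efferocytosis genes as red diamonds, other genes as grey dots, and in black the 5 called with the stricter filter. Trem2 and Klf4 lie to the right of 0, and Calr, Thbs1 and Rab5c to the left.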

How the data were processed

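RNA-seq counts of 8 libraries were analysed. The authors deposited raw counts per gene, which per the file headers were made by featureCounts 1.6.0 with the GRCm39 gene models of Ensembl release 106, with no option for strand, read pairs or multiple positions. The submitters' processing notes also name Trimmomatic and DESeq2. For the aligner, no name is given in the sources used here. Of counts from 2 to 20, between 73.0% and 86.0% per library were even, so counts may hold both reads of a pair. Symbols were matched for 52081 of 55414 genes. Other deposited values used were exon lengths.

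Genes were filtered with filterByExpr (minimum count 10), scaled by TMM and tested by the quasi-likelihood F test of edgeR over all 8 libraries, with two-sided p-values and Benjamini-Hochberg adjustment. Standard errors were taken as the fold change over the root of F, and intervals from the t distribution of the fit. CPM values use TMM factors and TPM values the exon lengths. Work was done in R 4.3.3 (DESeq2 1.42.0, limma 3.58.1, edgeR 4.0.16) and Python 3.11.15 (pandas 2.3.3, numpy 2.4.6, matplotlib 3.10.9). The fits were also run on simulated data, and the outcome is not reported here.

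The genes, lists and tests were chosen with earlier results of these data known. Named were all 10 genes; from each list up to 4 called genes, else the 3 of smallest p under 0.05, and the most abundant; and the 3 nearest profiles (prior count 2) of the 3 most variable genes. Alternatives were DESeq2, limma voom, other scalings and filters, halved counts, a threshold of 0.1, a fit of letters a to c blocked by letter or not, and libraries left out. Leaving out libraries under the stricter filter was added after seeing the data. The labels do not say whether pools shared mice, and p-values then reflect only how pools vary. Floors cover counting error only and take counts as independent, though counts may hold both reads of a pair. A gene that the naming rule selects is not reported here.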

Additional observations from a re-analysis of the deposited data

Results flagged for a closer look

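In 30 groups of 5 libraries (day 3, the 10 genes and the 20 named genes of the pathway lists), 3 held a library whose gap to its nearest neighbour was over 0.71 of the whole range, where chance gives about 1 in 20. None of the 10 efferocytosis genes was among them. Thbs1 was at 2649 CPM in day 3 b, where the next library had 1626 CPM. Cd14 was at 15851 CPM in day 3 b, where the next had 9555 CPM. Lamp1 was at 1325 CPM in day 3 e, where the next had 1020 CPM. Day 3 b is also the day 3 library with the most neutrophil markers, and the part of that in these values was not tested. Groups of 3 libraries (day 1) were not examined in this way.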

How the results depend on the processing

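Of 199 fold changes of the 10 genes under 20 alternatives, 177 kept their sign and their side of the threshold, 17 changed sign without a call on either side (Elmo1 7, Axl 3, Dock1 3, Mertk 2, Gas6 1 and Mfge8 1), and 5 passed the threshold: Tgm2 with DESeq2, with no filter and at an adjusted p under 0.1, and Pros1 and Cd36 with no filter. The count called among the 10 was 0 in the edgeR test and became 1 with DESeq2, 1 at a threshold of 0.1 and 3 with no filter on low counts. Over all genes the count was 2 of 15371, and 1041 with DESeq2, 825 with limma voom and 1347 of 38518 with no filter. It was 146 with the stricter filter, 47 with halved counts, 735 at a threshold of 0.1, and from 0 to 59 with 1 library left out. For the pathway genes it was 0, and 8 with DESeq2, 8 with limma voom, 11 with no filter, 5 with the stricter filter, 2 with halved counts, 7 at 0.1, and from 0 to 2 with 1 library left out. The cause was not tested.

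With 1 library left out, the median of the 10 ran from -0.177 to 0.115 and the count whose days did not overlap from 1 to 2, where 16.32% to 25.04% of all genes did not overlap. Without day 1 a and day 3 b together these were 0.251 and 4 (where 29.1% of all genes did not overlap), with 25 genes called over all and 1 in the pathway. Under the stricter filter, leaving out 1 library gave 0 to 390 genes over all, 0 to 1 of the 10 and 0 to 8 pathway genes. Its counts of 0 over all genes came without day 3 c, d or e, with 1375, 1406 and 1453 genes at an unadjusted p under 0.05. Letters a to c with a replicate block gave 0 calls in edgeR (1343 genes had an unadjusted p under 0.05), and 0 with no block (1660). Deviations of same-letter libraries correlated at 0.0857, 0.0267 and 0.0006, and the letters of the alignments in the file header differ in part from those of the columns, so the letters were used as names. Depth limits Tyro3, which had at most 4 counts in a library.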
